A study of Arabidopsis thaliana with 91 samples.

Results

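In leaves of wild-type Col-0 Arabidopsis, 3100 stretches of at least 100 bp and under 1500 bp carried H3K4me3 peaks in both Col-0 libraries of SET1 and no peak of the histone variant H2A.Z. They were 21.3% of the 14566 H3K4me3 segments in that length range. A segment was a stretch covered by merged peaks of both H3K4me3 lists, and it entered the H2A.Z-free class when no peak of either of the 2 Col-0 H2A.Z lists touched it by 1 bp. Of the other segments, 2998 were touched by 1 H2A.Z list and 8468 by both, and these 11466 segments with H2A.Z are the reference class throughout. The class size rests on the longer H2A.Z list: with replicate 2 alone (21273 peaks, against 28280 in replicate 1) 5614 segments would be H2A.Z-free. The members were thus chosen by the SET1 H3K4me3 peaks and the Col-0 H2A.Z peaks, which are described here and support no comparison.

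The data were ChIP-seq peak lists from leaf tissue of 4- to 5-week-old Col-0 plants, 50 lists from 91 samples, each giving a fold per peak over the peak caller's background. A list held 808 to 30556 peaks, and read depth is not part of the lists. H3K4me3 was profiled in 29 lists, H2A.Z in 7, H3K14ac in 6 and the Myc tag in 8. SDG2-ZF plants expressed the catalytic domain of the H3K4 methyltransferase SDG2 on an artificial zinc finger from the UBQ10 promoter, and SDG2(H1866K)cd carried a missense change in that domain. The rdd background is the ros1-3 dml2-1 dml3-1 triple mutant of DNA demethylases, and SunTag-SDG2_rdr6, noguideSDG2_rdr6 and rdr6 plants share the rdr6 mutation, SunTag-SDG2 being dCas9 with peptide repeats that recruit antibody-fused SDG2. TRBIP1-ZF plants and their controls carried the fwa epiallele. TRBIP1-dCAS9-MQ1v and dCAS9-MQ1v plants carried dCas9 fused to a variant of a bacterial CG DNA methyltransferase, in the background of the fwa epiallele and the rdr6 mutation. Of these, only TRBIP1-dCAS9-MQ1v was compared with fwaxrdr6, the control of that background. Myc-tagged ROS1, a DNA demethylase, was profiled alone (ROS1) and with SDG2-ZF (ROS1xSDG2-ZF), and Myc-tagged JMJ14, an H3K4 demethylase, alone and with TRBIP1-ZF. Untagged Col-0 precipitated with the Myc antibody was the control, of which only the SET6 list was used, so that Myc background in SET4 and SET7, which hold the ROS1 libraries, was not analysed here. The labels number the sets from SET1 to SET11 without saying what a set is. The labels number the replicates but do not say which came from separate plants, so the p-values measure the spread between libraries.

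H3K4me3 marks the first nucleosomes of transcribed plant genes. H2A.Z replaces H2A in nucleosomes around the same gene starts, where the SWR1 remodelling complex deposits it, and it is also found along the bodies of genes that respond to the environment. Because both usually lie side by side at a gene start, the segments that hold one without the other were described by position, sequence, gene content and the other marks over them.

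The sequences of the strongest H2A.Z-free segments show what such chromatin looks like, read on the gene strand of TAIR10.1 with every CG dinucleotide in capitals. The first group holds the segments with the highest lowest-fold over both H3K4me3 lists (AT3G60410 and ARIA), the strongest of those with H2A.Z in all 3 SDG2-ZF libraries (NAGS1) or with Myc-ROS1 in all 4 ROS1 libraries (ELC), and the strongest on a pseudogene (SADHU2-1) and in intergenic sequence.
AT3G60410, chr3:22332066-22332225, plus strand: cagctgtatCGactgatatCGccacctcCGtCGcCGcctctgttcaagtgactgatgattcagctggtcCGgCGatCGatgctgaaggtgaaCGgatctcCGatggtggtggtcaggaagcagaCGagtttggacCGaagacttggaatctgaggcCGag
ARIA, chr5:6512257-6512416, minus strand: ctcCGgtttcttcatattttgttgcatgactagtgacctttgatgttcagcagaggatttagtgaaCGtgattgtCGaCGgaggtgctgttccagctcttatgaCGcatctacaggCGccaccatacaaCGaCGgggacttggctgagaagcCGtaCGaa
NAGS1, chr2:9750198-9750357, plus strand: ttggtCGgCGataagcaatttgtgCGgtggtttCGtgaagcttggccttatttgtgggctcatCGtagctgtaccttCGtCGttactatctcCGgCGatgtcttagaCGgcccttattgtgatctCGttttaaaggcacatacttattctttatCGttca
ELC, chr3:3945287-3945446, minus strand: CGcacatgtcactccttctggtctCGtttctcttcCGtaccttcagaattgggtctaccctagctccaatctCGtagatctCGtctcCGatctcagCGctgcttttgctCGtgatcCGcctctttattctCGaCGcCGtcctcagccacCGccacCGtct
SADHU2-1, chr1:12841146-12841305, minus strand: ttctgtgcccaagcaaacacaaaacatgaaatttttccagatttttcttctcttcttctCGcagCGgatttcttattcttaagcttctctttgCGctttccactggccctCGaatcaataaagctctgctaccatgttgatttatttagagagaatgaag
intergenic, chr2:10075732-10075891, plus strand: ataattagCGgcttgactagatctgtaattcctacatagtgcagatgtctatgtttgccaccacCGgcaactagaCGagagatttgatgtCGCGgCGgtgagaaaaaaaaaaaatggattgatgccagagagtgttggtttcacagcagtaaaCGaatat

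These 6 windows lie outside UTRs and held 13, 10, 12, 14, 4 and 7 CG dinucleotides in 160 bases. The window of SADHU2-1 does not lie wholly inside the annotated pseudogene. The intron under the midpoint was then taken from the 3 strongest segments centred on an intron between coding exons, since introns were commoner under the H2A.Z-free class, and 2 segments with H2A.Z in both lists are shown beside them.
ARIA intron, chr5:6512367-6512448, minus strand: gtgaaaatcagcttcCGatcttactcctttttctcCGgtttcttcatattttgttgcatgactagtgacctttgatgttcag
AT5G47390 intron, chr5:19227284-19227443, plus strand: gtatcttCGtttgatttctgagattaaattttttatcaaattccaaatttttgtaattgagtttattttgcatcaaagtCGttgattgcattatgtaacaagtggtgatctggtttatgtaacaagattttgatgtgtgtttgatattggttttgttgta
TAP38 intron, chr4:13853703-13853777, minus strand: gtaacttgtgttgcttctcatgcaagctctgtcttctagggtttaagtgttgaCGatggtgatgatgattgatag
CP29 with H2A.Z, chr3:19820844-19821003, minus strand: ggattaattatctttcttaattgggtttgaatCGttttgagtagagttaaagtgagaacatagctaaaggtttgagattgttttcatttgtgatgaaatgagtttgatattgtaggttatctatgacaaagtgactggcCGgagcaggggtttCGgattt
CAO with H2A.Z, chr2:19473262-19473421, plus strand: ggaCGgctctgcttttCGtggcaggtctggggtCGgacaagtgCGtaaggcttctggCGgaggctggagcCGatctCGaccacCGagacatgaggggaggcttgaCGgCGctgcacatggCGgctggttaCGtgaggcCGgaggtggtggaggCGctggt

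The introns of ARIA, AT5G47390 and TAP38 had GC contents of 39.0%, 27.5% and 41.3% and 2, 2 and 1 CG dinucleotides. Only that of AT5G47390 lay below the class median of 37.3% for the central 300 bp of a segment. The coding window of CAO, a chloroplast signal recognition particle gene under both H2A.Z lists, had a GC content of 65.6% and 14 CG dinucleotides. Single windows did not separate the classes: the coding window of the H2A.Z-free AT3G60410 reached 56.2%, and the mostly intronic window of CP29, which has H2A.Z in both lists, was AT-rich. The strongest segments are also not typical, since peak height and base composition moved together, as given below for the whole class.

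The H2A.Z-free segments lay just downstream of gene starts. Their midpoints sat at a median of 389 bp downstream of the nearest coding gene start, with quartiles of 302 and 503 bp, against 395 bp for segments with H2A.Z (quartiles 298 and 545 bp). Within 500 bp of a coding start were 2181 of the 3100 (70.4%, Wilson 95% interval 68.7 to 71.9%, counting error only), against 66.5% (65.7 to 67.4%) of segments with H2A.Z. A further 786 (25.4%) lay elsewhere in a coding gene, 86 in another kind of gene, 26 in pseudogenes and 21 in intergenic sequence. Both classes thus shared one position, with the H2A.Z-free class slightly more often at a start. The segments covered 2101 kb in all, with a median length of 659 bp (105 to 1495 bp) against 676 bp with H2A.Z, and they belonged to 3036 genes, of which 41 held more than 1. Their share of all segments was 20.7% under 500 bp, 22.9% from 500 to under 1000 bp and 14.3% from 1000 bp.

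**Figure D1:**
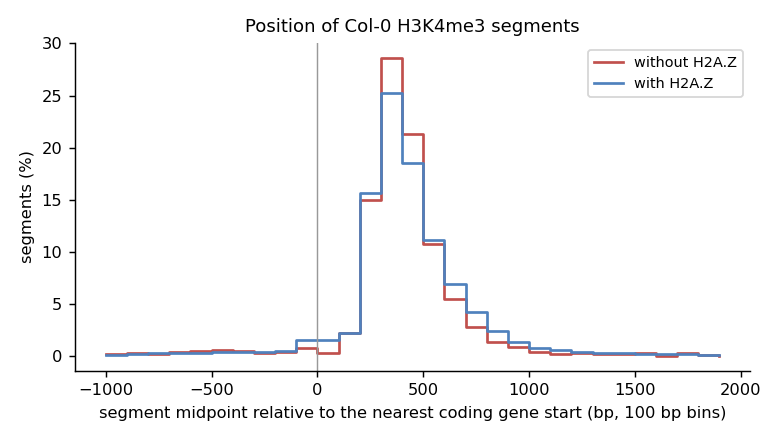
Distance of segment midpoints from the nearest coding gene start, in bp (100 bp bins, positive downstream), against the percent of segments of each class in the bin, for the 3100 segments without H2A.Z and the 11466 with H2A.Z. Both lines peak downstream of the start, with medians of 389 and 395 bp.

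The nearest H2A.Z peak in Col-0 lay at a median of 1616 bp from an H2A.Z-free segment (quartiles 693 and 2916 bp). A peak lay within 200 bp of 140 segments (4.52%) and within 1 kb of 1060 (34.2%), whereas 291 (9.39%) had none within 5 kb. Among the genes whose start carried an H2A.Z-free segment, 126 of 2176 (5.79%) had an H2A.Z peak anywhere in the gene, so few of these genes had H2A.Z elsewhere along their length. For genes whose start carried a segment with H2A.Z the share was 7513 of 7619 (98.6%), which the choice of segments largely fixes. Median gene length was 2508 bp and 2446 bp, and 10.3% and 14.9% of the genes had a single coding exon.

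At the limits of the rule, the shortest H2A.Z-free segment inside was 105 bp (AT3G60590) and the nearest outside 86 bp (AT5G58300). The longest inside was 1495 bp (NPR3) and the next outside 1509 bp (IDD1). The segment of GF14 PHI stood 4 bp from an H2A.Z peak and was inside, while that of AT5G27860 overlapped one by 2 bp and was outside. From 1500 bp, 52 of 588 segments (8.84%) had no H2A.Z.

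The classes differed in the part of the gene under the midpoint. Introns held the midpoint of 1355 of the 3100 H2A.Z-free segments (43.7%, 42.0 to 45.5%), against 21.6% (20.9 to 22.4%) of segments with H2A.Z. Coding exons showed the reverse, with 31.9% (30.3 to 33.5%) against 62.5% (61.6 to 63.4%). Segments touched by 1 H2A.Z list were intermediate, at 31.9% in introns and 47.5% in coding exons, and those touched by both lists were at 18.0% and 67.8%.

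Read the other way, 988 of 8157 segments centred on a coding exon lacked H2A.Z (12.1%, 11.4 to 12.8%). The share was 32.3% (30.0 to 34.7%) on a 5′ UTR exon, 29.6% (27.9 to 31.3%) on an intron between coding exons and 50.6% (47.6 to 53.6%) on an intron inside the 5′ UTR, where 536 of 1060 lacked H2A.Z. So a segment over a leader intron was H2A.Z-free about as often as not. Among segments within 500 bp of a coding start the shares were 11.8% on coding exons, 30.9% on 5′ UTR exons, 31.7% on introns between coding exons and 49.3% on 5′ UTR introns, so the middle pair changed order.

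In the gene lists, 7 of 18 H2A.Z-free segments were centred on an intron in the 5′ UTR, 5 on a coding exon, 4 on a 5′ UTR exon and 2 on another intron. ACT7, a vegetative actin long used as a reference transcript, held its H2A.Z-free segment at chr5:3052110-3052985, centred on an intron in the 5′ UTR, with H3K4me3 folds of 4.86 and 6.93. The same holds for PP2AA3, a phosphatase scaffold subunit (3.58 and 3.49), for SDG8, best known as an H3K36 methyltransferase (4.69 and 5.26), and for ATXR7, an H3K4 methyltransferase (4.14 and 4.29). Leader introns also lay under the segments of the clock genes PRR7 and GI and under TRBIP1, a partner of the telomere repeat binding proteins. Leader introns also lay under list segments with H2A.Z, namely those of SDG2, SWC2, ACT8 and SOC1. The midpoints of the H2A.Z-free ones lie within 627 bp of the nearest coding gene start, and that of SOC1 lies at 755 bp.

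Base composition followed. In the central 300 bp, H2A.Z-free segments had a median GC content of 37.3% (quartiles 34.0 and 40.7%) and 3.0 CG dinucleotides per 100 bp. Segments with H2A.Z in both lists had 43.7% (40.3 to 48.0%) and 4.67, and those with 1 list fell between at 39.3% and 3.33. Windows of the same length centred on all coding gene starts had 34.7% and 2.33, and windows centred 389 bp downstream of them had 39.7% and 3.0. The gap between the classes held within coding exons, at 41.0% against 45.3%, within introns, at 35.7% against 38.7%, and within 5′ UTR introns, at 34.0% against 36.3%.

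With the segments in 10 classes of GC content of about equal size, the H2A.Z-free share fell at every step, from 55.7% (53.2 to 58.2%) in the lowest class, at or below 34.3% GC, through 22.4% in the fourth to 4.62% (3.63 to 5.85%) in the highest. The H2A.Z lists that the rule did not use moved the opposite way, from a mean of 21.3% of all segments in the lowest class to 89.7% in the highest. H3K14ac in the Col-0 lists went from 86.9% to 97.0%, and cover this high in every class leaves little room for a gradient. The median of the lowest H3K4me3 fold was 3.65 in the lowest class and 5.16 in the highest. Recovery of AT-rich DNA in the libraries can move with GC content too, and its part in this gradient was not tested.

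**Figure D2:**
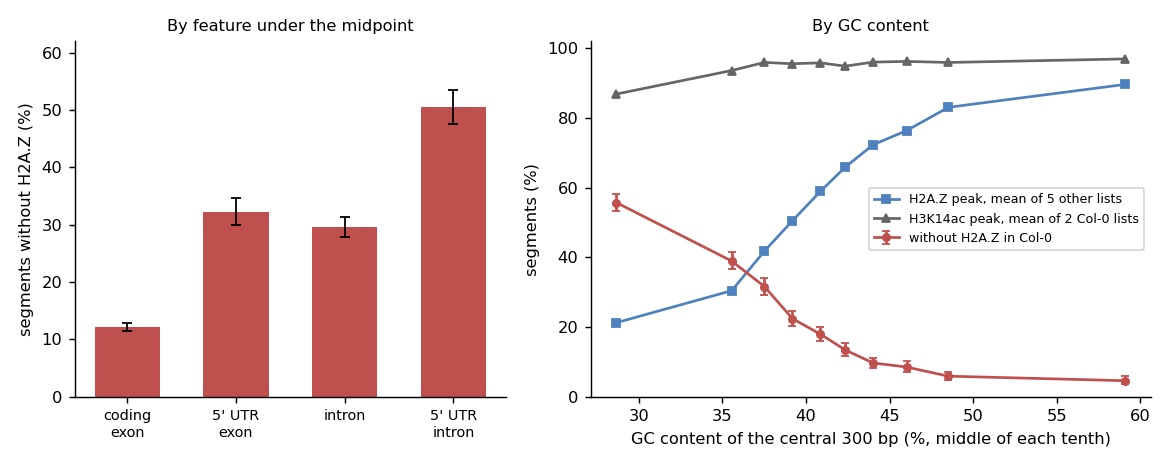
Left, percent of H3K4me3 segments without H2A.Z by the feature under the midpoint, with Wilson 95% intervals (12.1% on coding exons, 50.6% on 5′ UTR introns). Right, the same percent in 10 classes of GC content with Wilson 95% intervals, beside the percent of segments under H2A.Z peaks (mean of the 5 lists the rule did not use) and under H3K14ac peaks (mean of the 2 Col-0 lists). The H2A.Z-free share falls from 55.7% to 4.62% while H3K14ac stays between 86.9% and 97.0%.

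For motifs, 5 short words were searched on both strands of the same 300 bp, none of which contains another. They were the telobox AAACCCTA and the repeat GAGAGAGA. The site II core of many ribosomal and growth genes was spelled TGGGCC. The core of the common promoter element bound by the general transcription machinery was spelled TATAAA. The G-box of bZIP and bHLH factors was spelled CACGTG. The telobox, a short repeat related to plant telomeres that the telomere repeat binding proteins recognise, occurred in 548 H2A.Z-free segments (17.7%). It was in 12.1% of segments with 1 H2A.Z list and 10.2% of those with both, and in 8.97% of windows on all coding starts and 9.09% of windows 389 bp downstream. Its share was higher in H2A.Z-free segments within each feature, at 12.7% against 8.01% on coding exons, 18.5% against 15.4% on introns and 26.4% against 17.9% on 5′ UTR exons. It was also higher at like GC content, since of segments under 35% GC 68.6% (62.9 to 73.7%) with a telobox and 51.1% (48.5 to 53.7%) without one lacked H2A.Z. At 35 to 40% GC these shares were 34.96% and 30.4%.

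The other motifs differed in both directions. TATAAA was in 19.9% of H2A.Z-free segments and 14.7% of segments with H2A.Z, whereas TGGGCC was in 1.29% against 2.84%, CACGTG in 1.71% against 3.48% and GAGAGAGA in 7.19% against 10.7%. Within introns most of these gaps were small, at 23.1% against 21.0%, 0.959% against 1.01%, 1.18% against 1.41% and 6.86% against 11.6%. On coding exons the shares were 12.1% against 10.5%, 1.62% against 2.37%, 2.43% against 4.23% and 6.88% against 9.69%. Much of the difference between the classes thus went with the feature under the midpoint. Windows on all coding starts held these motifs in 47.6%, 14.7%, 7.56% and 15.4%, and windows 389 bp downstream in 22.5%, 2.58%, 3.37% and 9.08%. A match states only that the letters are in the window. The telobox, in capitals, is shown with its flanks in the 4 strongest H2A.Z-free segments of coding genes that hold it outside UTRs, read on the strand that carries the motif.
TAP38 telobox, chr4:13853723-13853752, plus strand: cgtcaacacttAAACCCTAgaagacagagc
TCP8 telobox, chr1:21513341-21513370, plus strand: agctgatgatgAAACCCTAaaagcggcgac
BPM2 telobox, chr3:1876546-1876575, plus strand: aacctccttggAAACCCTAattgtgtccat
AT1G10150 telobox, chr1:3326478-3326507, minus strand: cacagcctgagAAACCCTAgaaagcgaatc

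In all 4 the motif lay on the strand opposite to the gene's own, in an intron of TAP38 and in coding sequence of the others.

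H3K4me3 peak height, which the rule used, is given as a description. The lowest fold over both lists had a median of 4.28 in H2A.Z-free segments (quartiles 3.36 and 5.25, range 1.198 to 8.99) and 4.50 with H2A.Z (3.24 and 5.69, up to 9.68). In 10 classes of this fold, the H2A.Z-free share was 19.3% in the lowest, rose to 27.9% in the fourth and fell to 13.7% in the highest. Segments without H2A.Z were thus commonest at middling height and least common among the tallest H3K4me3 peaks.

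**Figure D3:**
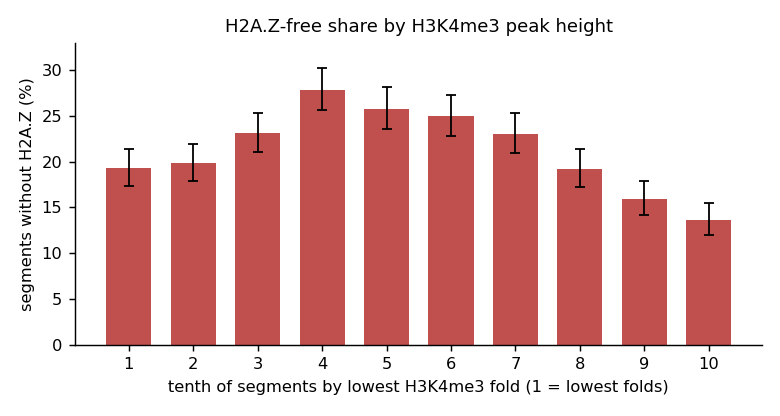
Percent of H3K4me3 segments without H2A.Z in each of 10 classes of the lowest fold over the 2 H3K4me3 lists, with Wilson 95% intervals. The bar is highest in the fourth class (27.9%) and lowest in the last (13.7%).

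The 12 tallest were AT3G60410, ARIA, AT5G47390, AT1G16840, TAP38, ERF3, RPK2, AT5G42090, TCP8, AT1G27930, AT1G28280 and ATRER1C1, with lowest folds from 8.20 to 8.99. AT3G60410, a DUF1639 gene, had folds of 9.67 and 8.99 over chr3:22331400-22332827. ARIA, an armadillo-repeat partner of the ABF2 transcription factor, had 9.19 and 8.88 over chr5:6511972-6512840. TAP38, the phosphatase that acts on light-harvesting complex II, had 9.18 and 8.55, and the ethylene-response repressor ERF3 had 8.48 and 9.03. Each of the 12 had an H3K14ac peak in both Col-0 lists, as did 91.0% of the class and 93.0% of all segments. Of the 12, 9 were centred on a coding exon and the other 3 on an intron, beside 31.9% and 43.7% of the class.

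In the H2A.Z libraries that the rule did not use, the class stayed low. H2A.Z peaks overlapped 4.06%, 16.4% and 1.52% of H2A.Z-free segments in SDG2-ZF replicates 1, 2 and 3, 22.5% in SDG2-ZF_rdd and 12.4% in rdd. Segments with H2A.Z were overlapped at 67.7%, 86.0%, 44.3%, 86.6% and 71.7%, so the classes did not overlap over the 5 libraries. The mean difference was -59.9 percentage points (SD 10.2, lower in 5 of 5 libraries). The exact two-sided sign-flip permutation test over libraries gave p = 0.0625, the smallest 5 libraries allow, and 0.104 after Benjamini-Hochberg adjustment over the 5 assays tested in this way. Where H2A.Z peaks did appear over H2A.Z-free segments their median fold was 2.03 to 2.59, against 2.53 to 3.199 over the others.

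No H2A.Z peak of these 5 lists reached 1981 of the 3100 segments (63.9%), and 1 list alone reached 656. At least 1 of the 5 lists had a peak over 1119 (36.1%), where the background over all segments was 83.0%. All 5 lists had one over 5 (0.161%, background 29.3%), and both rdd background lists over 229 (7.39%, background 55.3%). The share did not follow the distance to the nearest Col-0 H2A.Z peak, with a mean over the 5 lists of 12.6% under 200 bp, 10.2% from there to 1 kb, 11.2% up to 5 kb and 15.2% beyond.

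All 3 SDG2-ZF lists had H2A.Z over 6 H2A.Z-free segments (0.194%, 0.0887 to 0.422%, against a background of 31.6%). The strongest was that of NAGS1, which encodes N-acetylglutamate synthase of arginine synthesis, at chr2:9749832-9750567 with folds of 2.15, 3.34 and 2.18. AT3G60410 had 1.96, 2.17 and 2.49. QUA1, a glycosyltransferase of pectin synthesis, had 2.103, 2.17 and 1.95. PI4K GAMMA 4, AT3G06780 and the ESCRT subunit gene ELC made up the rest, with lowest folds of 1.87, 1.82 and 1.63. Except for PI4K GAMMA 4, all had an H2A.Z peak in both rdd background lists as well.

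H3K14ac, an acetylation of active promoters, was present over nearly all H2A.Z-free segments. Both Col-0 lists had a peak over 2822 of them (91.0%, background 93.0%), both SDG2-ZF lists over 2935 (94.7%, background 95.4%), and all 6 lists over 553 (17.8%, background 33.5%). By library, the shares were 93.5% and 93.4% in Col-0, 95.8% and 95.7% in SDG2-ZF, 95.3% in SDG2-ZF_rdd and 17.8% in rdd, whose list held only 5635 peaks. In each library segments with H2A.Z were covered more often, at 94.9% and 95.3%, 96.5% and 96.4%, 97.6% and 37.9%. The mean difference was -4.51 percentage points (SD 7.64, lower in 6 of 6), with an exact sign-flip permutation p of 0.0312, the smallest 6 libraries allow, and 0.0781 after Benjamini-Hochberg adjustment. Without the rdd library it was -1.40 points, and averaged within 5 classes of GC content it was -1.58 points (p = 0.219, exact). Median H3K14ac folds in the 2 Col-0 lists were 2.98 and 3.23 over H2A.Z-free segments and 3.54 and 3.83 over the others.

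With the lists of each assay cut to equal numbers of peaks, which also changed the segments (4191 H2A.Z-free of 8397), it was -21.4 points.

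The strongest H3K14ac lay over AT1G17930, a plant mobile domain gene (7.79 and 8.47 in Col-0), AT3G57790, a pectin lyase-like gene (8.04 and 7.70), and ASIL2, a DNA-binding factor (7.50 and 8.43). AT1G19240, ARIA and the lectin receptor kinase AT2G43700 followed, with lowest folds of 7.19, 6.70 and 6.70. None of the 6 had Myc peaks in all 4 ROS1 libraries, and none had H2A.Z in all 3 SDG2-ZF libraries. Both were rare in the whole class, at 2.97% and 0.194%, so their absence from 6 segments sets these apart in no way.

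ROS1, the DNA glycosylase that removes 5-methylcytosine, was found less often over the H2A.Z-free class. Myc-ROS1 peaks overlapped 12.03% and 15.2% of its segments in the ROS1 libraries and 18.4% and 7.10% in ROS1xSDG2-ZF, against 27.6%, 27.7%, 38.5% and 19.4% of segments with H2A.Z. The difference was -15.1 percentage points on average (SD 3.65, lower in 4 of 4), with an exact sign-flip permutation p of 0.125, the smallest possible with 4 libraries, and 0.156 after Benjamini-Hochberg adjustment. Both ROS1 lists had a peak over 202 H2A.Z-free segments (6.52%, background 15.5%), both ROS1xSDG2-ZF lists over 140 (4.52%, background 14%) and all 4 over 92 (2.97%, background 10.6%). The gap was present on coding exons, at a mean of 14.5% against 31.7% over the 4 libraries, and on introns between coding exons, at 12.03% against 24.2%. Myc-ROS1 cover of all segments also varied with GC content. Its mean over the 4 libraries was 24.5% in the lowest class of GC content, 18.0% in the third and 47.2% in the highest. With each list cut to equal numbers of peaks the difference was -3.83 points, and without H2A.Z Col-0 replicate 1 it was -6.53 points.

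Among the 92 segments outside peaks of the untagged library, ELC had the highest lowest-fold. ELC encodes an ESCRT-I subunit that binds ubiquitin, and its folds were 5.40 and 4.00 in ROS1 and 6.77 and 3.57 in ROS1xSDG2-ZF over chr3:3944937-3945969. UXS4, a UDP-xylose synthase, had 3.32, 3.18, 3.90 and 3.34. AT1G27330, a RAMP4 family gene, had 3.15, 4.92, 3.68 and 3.22. Next came 2 genes of the immune system, namely BIR1, a kinase that interacts with BAK1 (lowest fold 3.09), and RIN4, the membrane protein guarded by RPM1 (lowest fold 2.90), followed by the VQ motif gene AT1G28280 (2.78).

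Myc-JMJ14 was rare over either class. Its peaks overlapped 2.097% of H2A.Z-free segments in JMJ14 and 5.19% and 5.74% in JMJ14xTRBIP1-ZF, against 2.85%, 12.1% and 9.82% with H2A.Z. The difference was -3.90 percentage points (SD 3.06, lower in 3 of 3), and with 3 libraries the exact sign-flip permutation p was 0.25, the smallest possible, before and after Benjamini-Hochberg adjustment. All 3 lists had a peak over 45 H2A.Z-free segments (1.45%, background 1.72%), so both shares were close. The difference was -1.76 points with equal numbers of peaks, -0.72 points within classes of GC content, -0.471 points without H2A.Z Col-0 replicate 1 and -2.42 points without JMJ14xTRBIP1-ZF replicate 1. Segments under a peak of the untagged SET6 library were kept in these counts. That library had peaks over 1.35% of H2A.Z-free segments and 0.122% of the others, and its part in the JMJ14 shares was not tested.

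The untagged library itself had Myc-antibody peaks over 42 H2A.Z-free segments (1.35%, background 0.384%) and over 14 of the 11466 others. Of the 42, 33 were the segments smallest of all in the lowest fold over both H3K4me3 lists, which was that of replicate 2 (1.198 to 1.26). In replicate 1 their folds were 1.66 to 1.70, where the class went down to 1.54. No segment with H2A.Z had a lowest fold under 1.3. These 33 lay on chromosomes 2, 3, 4 and 5, 19 of them in the 20% of 100 kb windows with the lowest gene content, and 15 were intergenic and 3 on rRNA genes. All 33 also had H3K14ac peaks in both Col-0 lists. The other 9 were taller in H3K4me3 (2.00 to 6.08) and lay over JMJ18 (2 segments), LDL3, TRBIP1, CRY1, AT4G37440, AT3G59660, VAB2 and JMJ14, with Myc-antibody folds from 36.1 at JMJ18 to 3.65 at JMJ14. Leaving out all segments with a lowest fold under 1.5 left the intron share at 44.1%.

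H3K4me3 itself was kept over the class in most lines. In the 21 libraries outside SET11, peaks overlapped 85.5 to 99.3% of H2A.Z-free segments, and all 3 SDG2-ZF lists had a peak over 2985 of them (96.3%, background 96.9%). All 27 lists other than the 2 of the rule had a peak over 958 (30.9%, background 44.7%). SET11, which holds the SDG2(H1866K)cd lines and their Col-0, stood apart: it covered 33.5 to 92.8% of H2A.Z-free segments and 53.8 to 97.4% of segments with H2A.Z, with median folds of 1.67 to 2.12 over H2A.Z-free segments. Over all 27 libraries the mean difference was -2.34 percentage points (SD 5.34, lower in 19), with p = 0.0173 in a sign-flip permutation test and 0.0781 after Benjamini-Hochberg adjustment. By set it was -10.6 points in SET11 and between -1.15 and 2.24 in the other 7, and with sets as the units the mean was -1.18 points (exact sign-flip permutation p = 0.633).

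**Figure D4:**
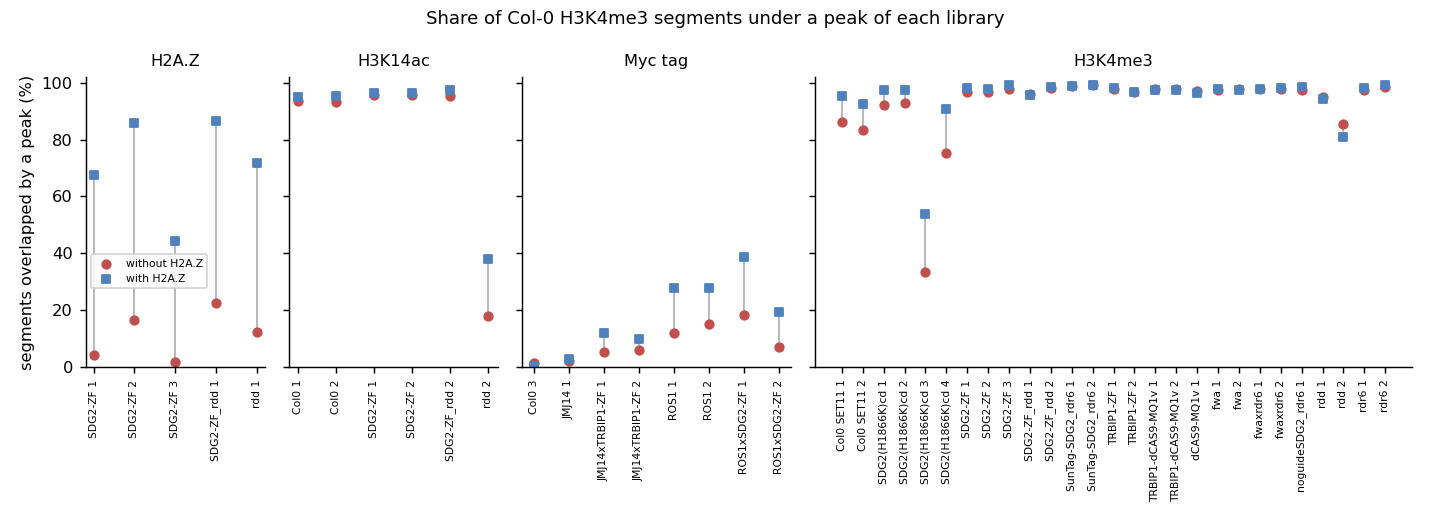
Percent of H3K4me3 segments overlapped by a peak in each of 46 libraries, for segments without H2A.Z (circles) and with H2A.Z (squares), by assay; x labels give the group and replicate. In the H2A.Z panel the circles lie between 1.52% and 22.5% and the squares between 44.3% and 86.6%, whereas in most H3K4me3 and H3K14ac libraries the symbols lie close together.

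The 8 comparisons between lines asked whether the H2A.Z-free class as a whole gained or lost peaks, and none could pass the test, since exact permutation of library labels gives at the lowest 0.333 with 2 against 2 or 2 against 1 libraries and 0.0667 with 4 against 2. H3K14ac covered 95.8% ± 0.0684 (SD, n = 2) of the segments in SDG2-ZF and 93.4% ± 0.0912 (n = 2) in Col-0, a difference of 2.37 percentage points without overlap of the groups (exact permutation p = 0.333, 0.533 after Benjamini-Hochberg adjustment over the 8). Segments with H2A.Z differed by 1.37 points in the same direction, and with equal numbers of peaks the H2A.Z-free difference turned to -0.847 points. H3K4me3 covered 97.2% ± 1.35 (n = 2) in SDG2-ZF_rdd and 90.2% ± 6.68 (n = 2) in rdd, a difference of 6.97 points, beside 9.44 points in segments with H2A.Z. This difference was 2.24 points without rdd replicate 2, 11.7 without rdd replicate 1 and 2.47 with equal numbers of peaks. SunTag-SDG2_rdr6 exceeded rdr6 by 0.952 points, beside 0.488 points with H2A.Z, and turned to -3.05 points with equal numbers of peaks.

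The SDG2(H1866K)cd lines covered 73.5% ± 27.8 (n = 4) and their Col-0 84.9% ± 1.98 (n = 2), a difference of -11.4 points that turned to 1.96 points without replicate 3 (33.5%). TRBIP1-ZF differed from fwa by -0.242 points, which turned to 0.226 without TRBIP1-ZF replicate 2, and TRBIP1-dCAS9-MQ1v from fwaxrdr6 by -0.145 points. Myc-ROS1 differed between ROS1xSDG2-ZF and ROS1 by -0.871 points with overlapping groups, and turned to 4.77 points without ROS1xSDG2-ZF replicate 2 and to 0.71 without ROS1 replicate 2. JMJ14xTRBIP1-ZF, at 5.47% ± 0.388 (n = 2), exceeded the single JMJ14 library by 3.37 points, beside 8.09 points in segments with H2A.Z. It was 0.477 points with equal numbers of peaks and 6.63 points without H2A.Z Col-0 replicate 1.

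By words in the annotated product, genes matching ribosomal protein had a high and those matching cytochrome P450 a low H2A.Z-free share. Upper and lower case were kept apart, except for histone. Products spelled with other capitals, such as the Ubiquitin-conjugating enzyme product of ELC, were left out. A group thus need not hold all of its genes. Coding genes had 14048 segments, of which 2949 (21.0%) were H2A.Z-free. Among genes whose product holds the words ribosomal protein in lower case, 41 of 89 segments lacked H2A.Z (46.1%). They included those of the chloroplast ribosomal genes PSRP6, RPL27 and RPL12-A, with lowest H3K4me3 folds of 7.15, 7.13 and 6.52. Genes matching cytochrome P450, a family of which many members make specialised metabolites, were at the other end, with 5 of 79 (6.33%). The carotenoid hydroxylase gene CYP97A3 and its relative CYP97B3 held the tallest of these, with lowest folds of 5.08 and 5.49.

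The remaining word groups of the design lay nearer the 21.0%. Transcription factors had 47 of 170 (27.6%), heat shock products 17 of 63 (26.98%), F-box proteins 30 of 134 (22.4%), disease resistance products 6 of 27 (22.2%) and tRNA ligases 10 of 48 (20.8%). Histones and their modifiers had 13 of 73 (17.8%), pentatricopeptide proteins 3 of 20, receptor kinases 10 of 70 (14.3%) and chlorophyll-binding proteins 2 of 14 (14.3%). Further words were chosen after the values had been seen. Of these ATP synthase (15 of 23), splicing (18 of 39), translation initiation (13 of 33) and ubiquitin (46 of 125) were high, and photosystem (6 of 41), WRKY (3 of 33) and auxin (4 of 45) were low. Counts in small groups rest on few genes, and no test was made between groups.

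**Figure D5:**
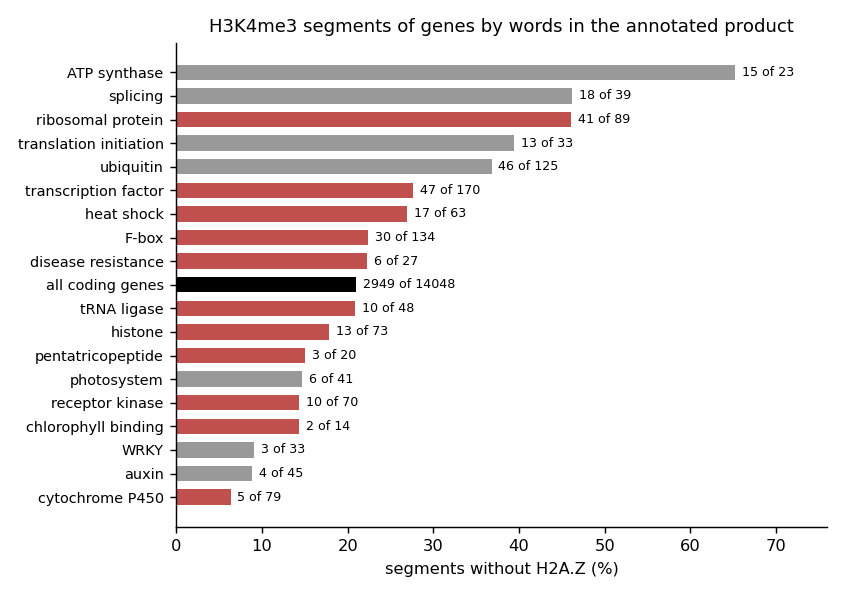
Percent of H3K4me3 segments without H2A.Z among segments of genes whose annotated product holds the words on the y axis, with members and segments printed beside each bar. Words were matched with upper and lower case kept apart, except for histone. Red bars are the word groups of the design, grey bars those chosen after the values were seen, and the black bar all coding genes (21.0%). Genes matching ribosomal protein stand at 46.1% and those matching cytochrome P450 at 6.33%.

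Over all coding genes 21.0% of segments were H2A.Z-free. By list, H3K4 demethylation genes had 6 H2A.Z-free segments of 9. They were 2 in JMJ14, 2 in JMJ18 and 1 each in JMJ16 and TRBIP1, whereas the segments of LDL1 and LDL2 had H2A.Z in both lists. JMJ14 also had a segment at its start (543 bp) with H2A.Z in 1 list and H3K14ac folds of 3.91 and 4.17. Its H2A.Z-free segments were short (267 and 200 bp), lay 1474 and 3365 bp into the gene and had no H3K14ac peak in Col-0, unlike those of JMJ16 and TRBIP1. Of the JMJ18 segments, the longer (987 bp) had H3K14ac and the shorter (206 bp) had none. The untagged-library peaks over JMJ18, TRBIP1 and JMJ14 given above touch 4 of these 6 segments. H3K4 methylation genes had 3 of 8, in ATX2, ATXR7 and SDG8, while SDG2, ATX1, ATX3, ATX4 and ATX5 had H2A.Z in both lists. For ATX2, a trithorax-type methyltransferase, the folds were 6.17 and 7.76 over chr1:1754184-1755111.

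The clock list had 4 of 9. TOC1, a repressor of morning genes, had folds of 5.03 and 5.45, and it carried Myc-ROS1 in all 4 libraries (1.902 to 3.55). ELF3, of the evening complex, had 6.02 and 6.51, PRR7 3.63 and 4.02, and GI 2.89 and 3.08. The housekeeping list had 3 of 6, in ACT7, PP2AA3 and EIF4A1, and DNA demethylation 1 of 4, in DME, the glycosylase of the central cell (4.58 and 5.19). INO80, a chromatin remodeller, held the single one of 8 in the H2A.Z and SWR1 list. No segment was H2A.Z-free in the photosynthesis list (0 of 6), the heat response list (0 of 5) or the flowering time list (0 of 5). With so few segments a list, these counts cannot be told from the 21.0% over all coding genes, and no test was made between lists.

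Segments over snoRNA genes often lacked H2A.Z. Of 78 segments that overlapped a snoRNA gene, which guides chemical modification of ribosomal RNA, 45 lacked H2A.Z (57.7%, 46.6 to 68.0%), and 59.2% of the snoRNA genes under any segment (87 genes) were under an H2A.Z-free one. These genes lie in clusters, so that segments and not genes are the unit, and 11 of the 45 segments were assigned to a coding gene. Examples were AT3G04175 at chr3:7682201-7682837 (folds 5.46 and 5.83), AT4G39364 (4.73 and 4.78) and AT4G03925 (4.52 and 5.21). Counted by genes under a segment, the miRNA count was 18 of 48 (37.5%), for lncRNA genes 165 of 696 (23.7%) and for tRNA genes 2 of 30 (6.67%) and for snRNA genes 0 of 9, beside 21.0% of coding genes.

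The miRNA segments included MIR403, whose product targets AGO2 (4.78 and 5.50), MIR168b, whose product targets AGO1 (3.77 and 3.68) and which had Myc-ROS1 in all 4 libraries (2.52 to 3.98), and MIR161 (3.57 and 3.27). The lncRNA genes AT5G02095, AT4G13918 and AT2G09795 had lowest folds of 8.15, 6.23 and 5.95. Among the 28 segments assigned to pseudogenes, SADHU2-1, a member of a family of nonautonomous retroposons, was tallest (6.80 and 6.44) and lay 10630 bp from the nearest H2A.Z peak, followed by AT2G12490 and AT5G04235 (lowest folds 6.22 and 5.70). The tallest of the 21 intergenic segments had folds of 5.04 and 6.48. No segment was assigned to a tRNA gene in the H2A.Z-free class, of 2 in all.

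By chromosome the class made up 18.9 to 22.2% of the segments on each of the 5. The gene-poor windows held 347 of the 3100 (11.2%), against 6.36% of segments with H2A.Z, and with these windows left out the intron share was 44.2%.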

How the data were processed

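ChIP-seq peak lists of 50 libraries were used. Per the submitters' processing notes, the authors' tools included Trim Galore 0.6.5, Bowtie2 2.1.0, SAMtools 1.9, deepTools 3.1.3 and MACS2 2.2.1. The deposited lists give, per peak, a ratio (fold enrichment) and −log10 p and −log10 q values as MACS2 wrote them, called per library. Read depth is unknown from the lists, so a peak not listed may be missing for lack of depth. No column of another series was used (0 columns).

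Peaks were merged per list and intersected in Python 3.11.15 (numpy 2.4.6, pandas 2.3.3, SciPy 1.17.1). Segments were annotated with TAIR10.1 (RefSeq), whose nuclear coordinates match the lists, and assigned to the gene, from 1 kb upstream to its end, that they overlap most. A segment counted as under a peak at 1 bp of overlap. Gene-poor windows were the 20% of 100 kb windows with least gene content. Shares have Wilson 95% intervals. Libraries were compared by two-sided sign-flip permutation (100000 draws for the 27 H3K4me3 libraries, exact otherwise), and groups by exact two-sided permutation of library labels. The statistics were tested on simulated data.

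Genes were named by rule: the 12 highest in H3K4me3, 6 each for H2A.Z in SDG2-ZF, Myc-ROS1 and H3K14ac, 3 per noncoding class, those of the gene lists and those at the limits of the rule. The snoRNA, telobox, intron and contrast examples, the word groups marked as such, the 10 classes of GC content and the weak segments were chosen after values were seen. The segments and lists were chosen with earlier results of these data known. Alternatives were leaving out each library, stricter q values, equal peak numbers, other lengths, overlaps and windows, and a replicate block. The pairing check gave correlations of same-numbered deviations of 0.150 to 0.438.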

Additional observations from a re-analysis of the deposited data

Results flagged for a closer look

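H3K14ac rdd replicate 2 stood far from the other 5 H3K14ac libraries, with peaks over 17.8% of H2A.Z-free segments. Its gap to the nearest library was 0.968 of the whole range, above the critical value of 0.625, which chance exceeds in about 1 in 20 groups. Its list held 5635 peaks.

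The difference in H3K4me3 cover between H2A.Z-free segments and those with H2A.Z had one sign in every library of several lines and the other sign in others. It was above 0 in TRBIP1-dCAS9-MQ1v (mean 0.318 percentage points) and rdd (2.59). It was below 0 in Col-0 of SET11 (-9.14), SDG2(H1866K)cd (-11.3), SDG2-ZF (-1.15), SunTag-SDG2_rdr6 (-0.0633), fwaxrdr6 (-0.200) and rdr6 (-0.527). The difference between these lines was not tested.

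The untagged Myc-antibody library, which the comparisons do not use, had peaks over 42 H2A.Z-free segments (1.35%), where the share over all segments was 0.384%.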

How the results depend on the processing

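A test is here said to pass at an unadjusted p under 0.05. Neither H3K4me3 nor H3K14ac passed after Benjamini-Hochberg adjustment of the sign-flip permutation test (0.0781 each). Of 66 alternative values for these 2 results, whose unadjusted test could pass, 52 kept their direction and still passed and 14 no longer passed. For the 3 values without a test, 10 of 35 moved. For the results whose test could not pass at any size, 9 of 199 turned direction, which says nothing of their stability in the test. The causes were not tested. Leaving out 1 library at a time gave 3148 to 5614 H2A.Z-free segments, 66.5 to 70.8% at a coding start and 38.5 to 44.1% in introns. In the same way the difference was -3.29 to -1.56 points for H3K4me3 and -5.37 to -1.40 for H3K14ac, where 5 libraries cannot go below p = 0.0625 in the exact permutation test. For Myc-JMJ14 it was -5.47 to -0.471. Between lines it was -17.8 to 1.96 points for SDG2(H1866K)cd, -0.71 to 0.226 for TRBIP1-ZF, -6.52 to 4.77 for ROS1xSDG2-ZF and 2.24 to 11.7 for SDG2-ZF_rdd. The share at a coding start was 8.68% within 250 bp, 93.2% within 1000 bp and 68.5% with equal numbers of peaks. The intron share was 41.7% at a −log10 q of at least 5 and 33.1% with equal numbers of peaks. The H3K4me3 difference was -2.32 points at a −log10 q of at least 5 (permutation p = 0.102), -2.37 with equal numbers of peaks (p = 0.105) and -1.93 with a minimum of 300 bp (p = 0.0595). In permutation tests, alternatives added after seeing the data gave -1.99 without segments of a fold under 1.5 (p = 0.0516) and -1.18 over sets (p = 0.633) for H3K4me3, and -1.58 within GC classes for H3K14ac (p = 0.219). For H3K4me3 they also gave -2.58 within GC classes (permutation p = 1e-05, the smallest the draws allow) and -1.88 within midpoint features (p = 0.00299). With equal numbers of peaks, H3K14ac in SDG2-ZF turned to -0.847 and H3K4me3 in SunTag-SDG2_rdr6 to -3.05 points. ROS1xSDG2-ZF turned to 0.102 at a −log10 q of at least 5, and TRBIP1-ZF was 0.0 with a minimum of 300 bp.

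With the replicate number as a block, SDG2(H1866K)cd differed from Col-0 by 7.68 points over the 2 shared numbers (exact permutation p = 0.5, the smallest possible). The block left 2.37 points for H3K14ac in SDG2-ZF, 0.952 for SunTag-SDG2_rdr6, 6.97 for SDG2-ZF_rdd, -0.242 for TRBIP1-ZF, -0.145 for TRBIP1-dCAS9-MQ1v and -0.871 for ROS1xSDG2-ZF, and it changed no call. With 2 pairs a comparison, the pairing rests on the numbers and shared sets.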
